A study of Mus musculus with 13 samples.

Results

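The imprinted domain around Kcnq1ot1 on distal chromosome 7 was represented by 10 genes, taken by symbol from a table of 23366 genes: Tspan32, Cd81, Tssc4, Kcnq1, Kcnq1ot1, Cdkn1c, Slc22a18, Phlda2, Nap1l4 and Cars, in their order along the chromosome. In the RefSeq annotation they follow H19, Igf2, Ins2, Th and Ascl2, so they lie outside the control region that was deleted in the mutant cells. RNA was sequenced from primary mouse myoblasts, the dividing precursors of skeletal muscle, isolated from the hind limb muscle of 2 to 3 day old pups, and from myotubes, which had been switched to medium with 1% horse serum and had differentiated over 24 hours. Strain background was mixed in every group. The wild type gave 4 myoblast and 5 myotube libraries. The mutant gave 2 myoblast and 2 myotube libraries from cells labelled dICR/dICR, in which both copies of the imprinting control region between Igf2 and H19 are deleted. No transgene or drug is named in the labels. They do not say whether replicates were separate animals or cultures, so p-values measure the spread between these samples, which may be technical.

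The domain holds its own control region, a differentially methylated stretch within Kcnq1 where the long noncoding RNA Kcnq1ot1 starts. On the paternal chromosome that stretch is unmethylated, Kcnq1ot1 is transcribed antisense to Kcnq1, and Cdkn1c and several neighbours are silenced in cis, so that Cdkn1c, Slc22a18, Phlda2 and, in many embryonic tissues, Kcnq1 are expressed from the maternal copy. Genes at the edges of the domain, such as Nap1l4 and Cars, are imprinted weakly or only in placenta. Cdkn1c encodes p57, an inhibitor of cyclin-dependent kinases that acts with p21 when myoblasts leave the cell cycle. These are matters of general knowledge: the counts do not separate the parental alleles.

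RefSeq promoter windows, from 250 bases before to 50 bases after a gene's start, were found for 6 of the 10 genes in the GRCm38.p6 assembly. The 4 windows below, written 5′ to 3′ along the gene with each CG in capitals, are those of the noncoding RNA, of the gene other than Cdkn1c that passed the test over all libraries, and of a neighbouring pair with few counts. They lie at chr7:143296498-143296797 on the minus strand (Kcnq1ot1), chr7:143069118-143069417 on the plus strand (Tssc4), chr7:143473539-143473838 on the plus strand (Slc22a18) and chr7:143502475-143502774 on the minus strand (Phlda2).
Kcnq1ot1: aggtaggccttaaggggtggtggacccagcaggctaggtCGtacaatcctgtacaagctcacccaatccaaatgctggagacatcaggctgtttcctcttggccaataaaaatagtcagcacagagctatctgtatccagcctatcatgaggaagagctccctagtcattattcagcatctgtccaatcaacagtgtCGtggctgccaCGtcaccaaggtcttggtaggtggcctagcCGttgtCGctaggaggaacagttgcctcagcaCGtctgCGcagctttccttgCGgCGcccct
Tssc4: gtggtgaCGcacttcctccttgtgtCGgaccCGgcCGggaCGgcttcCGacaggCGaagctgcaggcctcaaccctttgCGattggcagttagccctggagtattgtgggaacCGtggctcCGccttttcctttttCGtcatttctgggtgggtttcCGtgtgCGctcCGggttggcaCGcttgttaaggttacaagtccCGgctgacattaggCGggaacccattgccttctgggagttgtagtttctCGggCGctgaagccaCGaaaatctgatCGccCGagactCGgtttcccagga
Slc22a18: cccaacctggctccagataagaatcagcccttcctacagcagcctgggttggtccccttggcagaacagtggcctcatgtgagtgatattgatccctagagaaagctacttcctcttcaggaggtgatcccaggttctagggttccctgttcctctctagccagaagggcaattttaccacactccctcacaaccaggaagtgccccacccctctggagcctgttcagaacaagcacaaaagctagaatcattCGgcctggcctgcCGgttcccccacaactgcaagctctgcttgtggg
Phlda2: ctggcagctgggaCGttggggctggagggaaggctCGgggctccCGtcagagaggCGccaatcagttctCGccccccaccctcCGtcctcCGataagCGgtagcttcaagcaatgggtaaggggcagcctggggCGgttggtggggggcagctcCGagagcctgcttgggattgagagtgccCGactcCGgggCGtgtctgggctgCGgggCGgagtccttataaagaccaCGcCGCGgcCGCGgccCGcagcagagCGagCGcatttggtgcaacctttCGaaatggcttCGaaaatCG

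CG dinucleotides, the sites of DNA methylation, numbered 9 in the Kcnq1ot1 window, 23 in Tssc4, 2 in Slc22a18 and 26 in Phlda2, against a median of 7 over 32851 RefSeq windows of the same length. Cd81 had 23 and Tspan32 had 2. The Kcnq1ot1 window held 3 matches to CCAAT, the letters read by NF-Y, searched on both strands, and 37.4% of all windows held at least 1. CANNTG, the E-box letters read by MyoD and related factors, matched 3 times in Kcnq1ot1, 2 times in Slc22a18, 2 times in Phlda2 and 0 times in Tssc4, with 72.3% of all windows holding a match. A match describes the letters only.

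Total counts were 5.31 to 56.44 M (mega) counts per library and fell into a deep set of 7 libraries (at least 35.56 M) and a shallow set of 6 (at most 10.91 M). Wild-type myoblasts 1 and 2, wild-type myotubes 1 to 3 and both dICR/dICR myotubes were deep, and the other libraries, both dICR/dICR myoblasts included, were shallow. Levels are given as CPM, in which TMM-scaled library totals are set to a common size. H19, the check of the deletion, stood at 52.4 to 71.5 CPM in the 4 dICR/dICR libraries and at 2345 to 40500 CPM in the 9 wild-type ones. Ddx3y, a Y-linked gene, was near 0 in the 4 shallow wild-type libraries (0.153 to 0.462 CPM) and ranged from 14.5 to 176 CPM in the other 9. No muscle marker of the 11 measured was at 0 in any library. The summed level of 8 fibroblast markers was 98.8 to 976 CPM, and those of endothelial, leukocyte, Schwann and adipocyte markers stayed at or under 15.3 CPM. Smooth muscle and pericyte markers summed to 1.45 to 86 CPM.

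Cdkn1c differed widely between the groups. Wild-type myoblasts 1 to 4 had 99.1, 97.4, 43.4 and 53.5 CPM of Cdkn1c, and wild-type myotubes 1 to 5 had 297, 1170, 1230, 407 and 777 CPM. dICR/dICR myoblasts 1 and 2 had 4.14 and 2.35 CPM, resting on 53 and 18 counts, and dICR/dICR myotubes 1 and 2 had 70.4 and 123 CPM. Within each cell type the highest dICR/dICR library lay under the lowest wild-type one. That pattern was also found for 14.3% of all genes among myoblasts and 8.76% among myotubes. Within each genotype every myotube library lay above every myoblast library. For the wild-type libraries 9.07% of all genes had this order, and for the fewer dICR/dICR libraries 30% had it. For Cdkn1c the deep wild-type myoblasts were above the shallow ones, and wild-type myotube 1 was under the other 4 myotubes. In bulk samples, fewer cells that express a gene and less RNA per cell cannot be told apart.

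**Figure D1:**
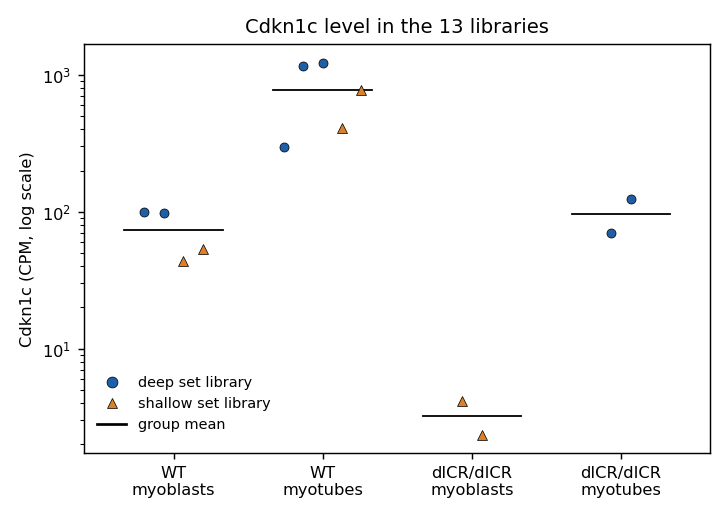
Cdkn1c level in CPM (vertical axis, log scale) for each of the 13 libraries by group, with circles for deep and triangles for shallow libraries and a bar at each group mean. The 2 dICR/dICR myoblast libraries sit at 2.35 and 4.14 CPM, under the lowest wild-type myoblast library at 43.4 CPM, and dICR/dICR myotubes reach 123 CPM against at least 297 CPM in wild-type myotubes.

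In myoblasts the mean Cdkn1c level was 3.24 ± 1.27 CPM (SD, n = 2) in dICR/dICR and 73.3 ± 29.1 CPM (SD, n = 4) in wild type. Over all libraries the log2 fold change (dICR/dICR minus wild type) was -4.49 ± 0.74 (SE), which did not pass (adjusted p = 0.0725, edgeR quasi-likelihood test, Benjamini-Hochberg adjustment over 16537 genes). H19, the check of the deletion, did not pass there either (-7.35 ± 1.13, edgeR adjusted p = 0.0562). None of the 9 members tested passed in this comparison, where 0.0302% of all genes were called. Cdkn1c had an unadjusted p under 0.05. So did Slc22a18, but its value is a description with no test, since it passed the filter through the group where it is high. In the shallow libraries alone, 2 wild-type and 2 dICR/dICR samples could be compared. Cdkn1c fell there by 3.83 ± 0.40 on the log2 scale (edgeR adjusted p = 0.00246). The 2 wild-type samples were the most alike of all replicate pairs, so this SE may understate the spread between separate cultures or animals. Within the shallow set 2 of the 6 members tested fell, Cdkn1c and Cd81, against 10.3% of all genes called lower. Leaving out any 1 of these 4 libraries kept the adjusted p of Cdkn1c at 0.0286 or less by the same edgeR test, in which the lone library left in a group is assumed to vary like the other groups.

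Muscle markers moved with this comparison. The 11 muscle identity markers summed to 12400 and 13200 CPM in the shallow wild-type myoblasts and to 4330 and 3100 CPM in dICR/dICR myoblasts. Within the shallow set 8 of the 11 were called lower, against 10.3% of all genes. Over all libraries 0 of the 11 were called, against 0.0302% of all genes. The deep wild-type myoblasts had marker sums of 3830 and 4190 CPM, within the range of the dICR/dICR myoblasts, and 99.1 and 97.4 CPM of Cdkn1c. Ddx3y also separates the shallow wild-type from the shallow dICR/dICR libraries. The part of these differences in the Cdkn1c result was not tested.

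In myotubes Cdkn1c averaged 96.8 ± 37.4 CPM (SD, n = 2) in dICR/dICR and 776 ± 426 CPM (SD, n = 5) in wild type. The log2 fold change was -3.00 ± 0.66 over all libraries (edgeR adjusted p = 0.0683) and -3.23 ± 0.65 within the deep set (edgeR adjusted p = 0.0783), and neither passed. With the depth set as a term in the edgeR fit the value was -3.29 ± 0.57 and passed (adjusted p = 0.013), as 1.2% of all genes did in the same direction. Over all libraries it also passed in edgeR without wild-type myotube 1 (-3.24, adjusted p = 0.0451) or wild-type myotube 2 (-2.84, adjusted p = 0.027). None of the 9 members tested was called in myotubes, against 0.556% of all genes over all libraries and 0.709% within the deep set, and over all libraries 1 of the 9 had an unadjusted p under 0.05. Ddx3y stood at 20.5 to 176 CPM in the 5 deep myotube libraries, so that gene does not separate the genotypes there. Muscle markers summed to 11300 and 19000 CPM in dICR/dICR myotubes and to 23800 to 40500 CPM in wild-type ones. The fibroblast sum was 212 and 98.8 CPM in dICR/dICR myotubes 1 and 2 and 233 to 976 CPM in wild-type ones. Smooth muscle and pericyte markers summed to 7.87 and 2.59 CPM in dICR/dICR myotubes and to 1.45, 86, 25.2, 55.6 and 42.4 CPM in wild-type myotubes 1 to 5. Single genes carried much of these sums: Pdgfrb had 79.8 CPM in wild-type myotube 2, and Cspg4 had 41.7 and 28.5 CPM in myotubes 4 and 5. Cnn1 was instead highest in dICR/dICR myotube 1, at 5.34 CPM. Of the 5 such markers tested over all libraries, 2 were positive and 3 negative, and 0 were called. The proliferation marker Mki67 stood at 482 and 237 CPM in dICR/dICR myotubes and at 14, 246, 7.17, 7.39 and 5.09 CPM in wild-type myotubes 1 to 5. The part of these markers in the Cdkn1c difference was not tested.

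Cdkn1c rose with differentiation in both genotypes. In wild type it rose by 3.40 ± 0.50 on the log2 scale, about 10.6-fold (edgeR adjusted p = 0.00148), by 3.23 ± 0.65 within the deep set (edgeR adjusted p = 0.0141) and by 3.63 ± 0.36 within the shallow set (edgeR adjusted p = 0.000738). In wild type 2 of the 9 members tested rose, Cdkn1c and Tssc4, against 8.86% of all genes. Within the deep set 2 of 9 rose, against 11.6% of all genes, and within the shallow set 2 of 6 rose, against 11.2%. In dICR/dICR cells Cdkn1c rose by 4.89 ± 0.79 (edgeR adjusted p = 0.0355) and was the 1 member called, against 0.115% of all genes called higher. This call was lost when any 1 of the 4 dICR/dICR libraries was left out (edgeR adjusted p = 0.0638 to 0.324, log2 values 4.42 to 5.37), again with a lone library assumed to vary like the others. All dICR/dICR myoblasts are shallow and all dICR/dICR myotubes deep, so cell type and depth set cannot be told apart there without the wild-type shift between the sets, and a fit with that shift as a term gave 4.07 ± 0.72 (edgeR adjusted p = 0.0082), with 4.8% of all genes called higher.

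The genotype effect on Cdkn1c was not shown to differ between cell types. The difference of the effects, myotubes minus myoblasts, was 1.48 ± 0.81 on the log2 scale (edgeR adjusted p = 0.516). It was 0.69 ± 0.79 once the depth set was added as a term (edgeR adjusted p = 0.786). No gene of the 16537 was called in this comparison (0%), and 0 of the 9 members tested had an unadjusted p under 0.05. By DESeq2 72 genes were called, and Cdkn1c had an adjusted p of 0.521. The genotype and differentiation comparisons share groups, so their values are not independent of each other.

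**Figure D2:**
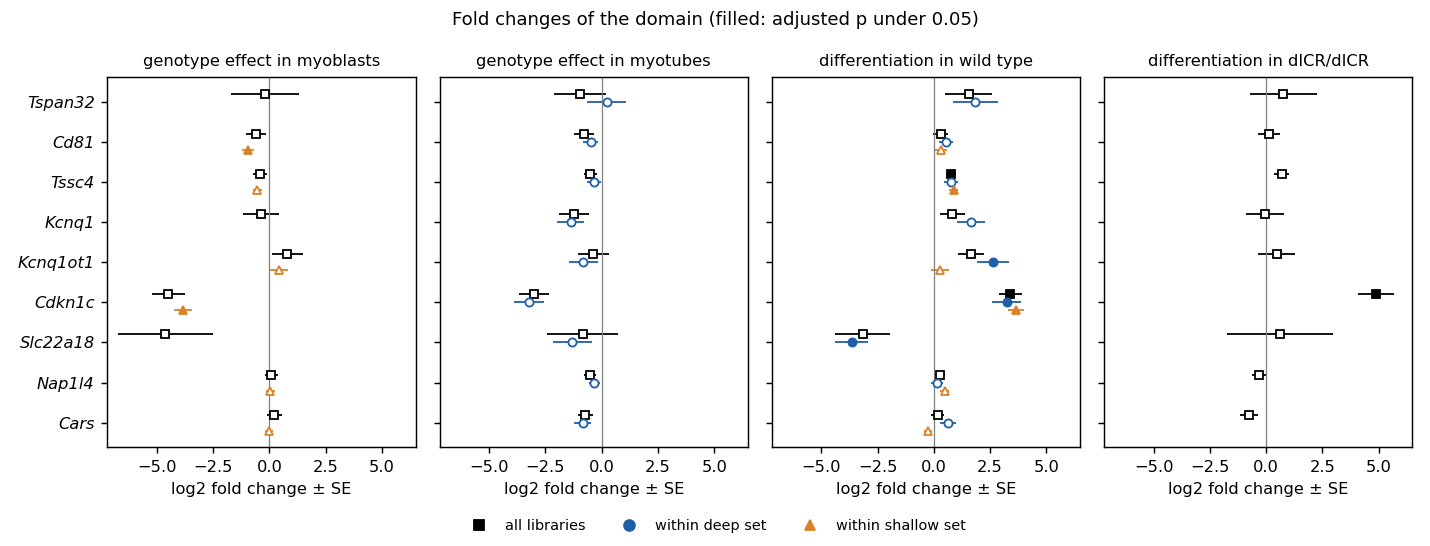
Log2 fold change with its standard error (horizontal axis) for the 9 members tested (vertical axis) in 4 comparisons. Squares are fits over all libraries, circles within the deep set and triangles within the shallow set, and filled symbols have an edgeR adjusted p under 0.05. Cdkn1c lies at -4.49 and -3.00 in the genotype comparisons and at 3.40 and 4.89 in the differentiation comparisons, while Nap1l4 and Cars stay between -0.84 and 0.63. The values of Slc22a18 and Kcnq1 are a description, since both passed the filter over all libraries through wild-type libraries, where they are higher.

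Kcnq1ot1, the noncoding RNA that silences the domain in cis, was detected in every library. Its levels were 45.7, 32.9, 60.8 and 88.2 CPM in wild-type myoblasts 1 to 4 and 94.4, 149, 466, 83.4 and 95.5 CPM in wild-type myotubes 1 to 5. dICR/dICR myoblasts had 142 and 56.2 CPM of Kcnq1ot1 and dICR/dICR myotubes had 91.6 and 182 CPM. Wild-type myotube 3 stood far above all other libraries, and both genotype pairs overlapped. The Kcnq1ot1 genotype effect was 0.80 ± 0.68 on the log2 scale in myoblasts and -0.38 ± 0.69 in myotubes, and neither passed the test (edgeR adjusted p = 0.634 and 0.809).

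During wild-type differentiation the Kcnq1ot1 difference was 1.65 ± 0.57 on the log2 scale when all libraries were fitted, which did not pass (edgeR adjusted p = 0.0607). Within the deep set it rose by 2.62 ± 0.72 (edgeR adjusted p = 0.0379), and without wild-type myotube 3 the deep value was 1.68 ± 0.42 (edgeR adjusted p = 0.0458). That call was lost without wild-type myoblast 1 or 2 (edgeR adjusted p = 0.174 and 0.235). In the shallow set the Kcnq1ot1 value was 0.28 ± 0.39 (edgeR adjusted p = 0.635), and its groups overlapped. Over 93.1 kb of exon the Kcnq1ot1 signal was spread thin: scaled to the exon length of the GENCODE M21 annotation, which may differ from the annotation used for counting, it stood at 1.91 CPM per kb in wild-type myotubes.

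Kcnq1, the potassium channel gene within which Kcnq1ot1 starts, was close to the detection limit. Its counts were 1 to 24 per library, or 0.117 to 0.577 CPM. In myotubes the Kcnq1 values were 0.267, 0.549, 0.577, 0.308 and 0.407 CPM in wild type and 0.127 and 0.238 CPM in dICR/dICR, with no overlap. The log2 fold change was -1.24 ± 0.66. Kcnq1 passed the filter on low counts through wild-type libraries only, where it is higher. Its genotype values and lack of overlap are therefore a description with no test. Kcnq1 and Cdkn1c were the members whose myotube genotypes did not overlap, both lower in dICR/dICR, as were 8.76% of all genes. Kcnq1 and Kcnq1ot1 share 121 exonic bases on opposite strands in GENCODE M21, and the strand setting of the counting is unknown, so reads of one may be counted in the other.

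Slc22a18, a membrane transporter gene next to Cdkn1c, was found mainly in the deep wild-type myoblasts. It had 3.43 and 5.64 CPM (184 and 290 counts) in wild-type myoblasts 1 and 2 and 0 counts in myoblasts 3 and 4, where 3 counts would be 0.37 and 0.46 CPM. Wild-type myotubes 1 to 5 had 0.152, 0.665, 0.216, 0 and 0 CPM of Slc22a18, dICR/dICR myoblasts had 0.156 and 0 CPM, and dICR/dICR myotubes had 0.0545 and 0.238 CPM. The 2 deep myoblast libraries were thus above the other 11, and shallow libraries of the same group had none. The log2 value of Slc22a18 for wild-type differentiation was -3.66 ± 0.75 within the deep set and -3.17 ± 1.21 over all libraries. These values are a description with no test, since the gene passed the filter on low counts through the deep wild-type myoblasts, where it is high. The genotype effect of -4.63 ± 2.12 in myoblasts compares those 2 libraries with shallow ones only, and within the shallow set the 4 myoblast libraries hold 2 Slc22a18 counts in all, which give no direction.

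Phlda2, which encodes a pleckstrin homology domain protein that limits placental growth, had 0 to 10 counts per library and did not pass the filter on low counts. Wild-type myoblasts 1 and 2 had 0.186 and 0.155 CPM of Phlda2, and the other values were 0.0908 and 0.166 CPM in dICR/dICR myotubes and 0.12 CPM or less in the other 9 libraries, 6 of which had no count. The 5 libraries with at least 5 counts of Phlda2 were all deep, and the gene was not tested. The Phlda2 window above is rich in CG and the Slc22a18 window poor, and both genes were near 0 in most libraries.

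Tssc4, which encodes a factor of spliceosome assembly, was the other member called over all libraries. Its levels were 30, 31.3, 36.9 and 39.1 CPM in wild-type myoblasts 1 to 4 and 62.1, 39.5, 52.1, 60.2 and 78.8 CPM in wild-type myotubes 1 to 5. The 5 myotube libraries were all above the 4 myoblast ones, as they were for Cdkn1c and for 9.07% of all genes. With wild-type differentiation Tssc4 rose by 0.77 ± 0.23 on the log2 scale (edgeR adjusted p = 0.0348). The change was 0.89 ± 0.20 within the shallow set (edgeR adjusted p = 0.0183) and 0.77 ± 0.32 within the deep set (edgeR adjusted p = 0.114). Leaving out 1 library at a time ended the call for 7 of the 9 wild-type libraries, all but myoblast 4 and myotube 2, with edgeR adjusted p between 0.0138 and 0.0997. dICR/dICR myoblasts had 27.8 and 23.3 CPM of Tssc4, under all 4 wild-type myoblasts, and dICR/dICR myotubes had 30 and 52.4 CPM. Tssc4 and Cdkn1c were the members whose myoblast genotypes did not overlap, both lower in dICR/dICR, against 14.3% of all genes, and the Tssc4 genotype effect of -0.42 ± 0.30 did not pass.

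Cd81, a tetraspanin of the cell surface, was abundant, and in wild-type myoblasts it was higher in the shallow libraries. Its levels were 252 and 258 CPM in deep and 493 and 457 CPM in shallow wild-type myoblasts, and 314 and 168 CPM in dICR/dICR myoblasts. Wild-type myotubes 1 to 5 had 455, 294, 346, 562 and 600 CPM of Cd81 and dICR/dICR myotubes had 180 and 346 CPM. The dICR/dICR myoblasts were under the shallow wild-type libraries but overlapped the deep ones. Within the shallow set Cd81 fell by 0.96 ± 0.28 on the log2 scale (edgeR adjusted p = 0.0449). The call was lost without wild-type myoblast 3 or 4 or dICR/dICR myoblast 2 (edgeR adjusted p = 0.0675 to 0.228) and when only the compared groups were fitted (edgeR adjusted p = 0.0552). Over all libraries the genotype effect was -0.59 ± 0.44 (edgeR adjusted p = 0.581).

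Nap1l4, a histone chaperone gene, and Cars, the cysteinyl-tRNA synthetase gene, form the far edge of the domain. Nap1l4 ranged from 183 to 360 CPM and Cars from 79.5 to 269 CPM over the 13 libraries. Over all libraries the log2 values of Nap1l4 were 0.08 ± 0.28 and -0.51 ± 0.28 for genotype in myoblasts and myotubes and 0.27 ± 0.22 for wild-type differentiation. Those of Cars were 0.22 ± 0.35, -0.72 ± 0.35 and 0.16 ± 0.27, and none of the 6 values passed. Tspan32, another tetraspanin gene and the opposite edge, had 1 to 19 counts per library, up to 1.63 CPM in wild-type myotube 5, and no value that passed.

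**Figure D3:**
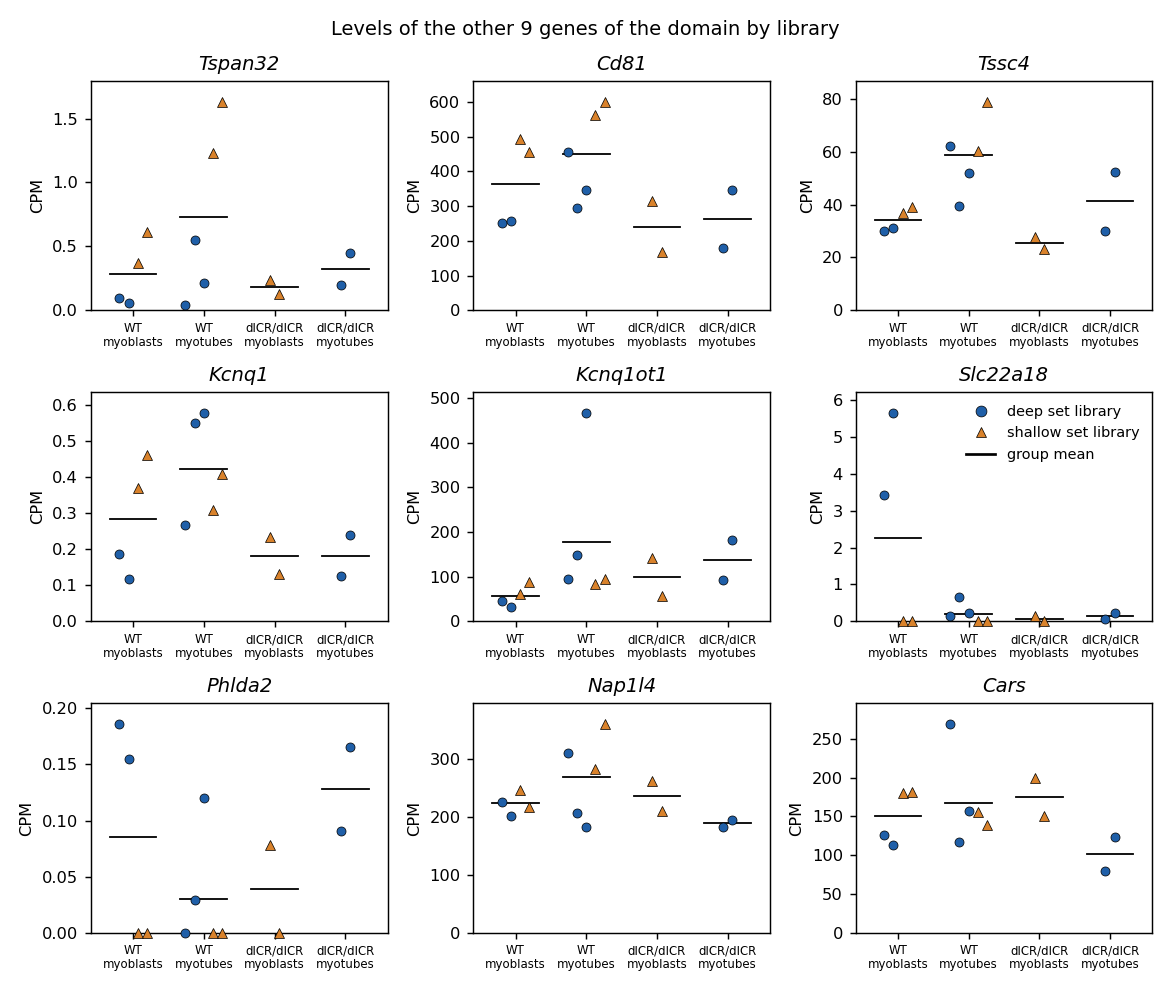
Levels in CPM (vertical axes from 0, one panel per gene) of the 9 genes other than Cdkn1c in the 13 libraries by group, with circles for deep and triangles for shallow libraries and bars at group means. Kcnq1ot1 reaches 466 CPM in wild-type myotube 3, Slc22a18 exceeds 3 CPM only in wild-type myoblasts 1 and 2, and Tssc4 is higher in all 5 wild-type myotubes than in the 4 wild-type myoblasts.

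Per kb of exon, Cdkn1c led the domain in wild-type myotubes at 381 CPM per kb, followed by Cd81 at 157, Nap1l4 at 86.6, Tssc4 at 31.7 and Cars at 25.5 CPM per kb. The ranges of Cdkn1c (146 to 603) and Cd81 (102 to 208 CPM per kb) overlapped there. In wild-type myoblasts Cdkn1c was at 35.9 CPM per kb, behind Cd81 at 127 and Nap1l4 at 72.1 CPM per kb. In dICR/dICR myoblasts Cdkn1c was at 1.59 CPM per kb, close to Kcnq1ot1 at 1.06 CPM per kb, and their ranges overlapped (1.15 to 2.03 and 0.604 to 1.53 CPM per kb). In dICR/dICR myotubes it stood at 47.5 CPM per kb, behind Cd81 at 91.4 and Nap1l4 at 61.1 CPM per kb.

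As a group the members were described by their medians, first from the fit over all libraries. Over the 9 tested members the median log2 genotype effect was -0.37 in myoblasts and -0.78 in myotubes, where all 9 were negative, against -0.06 over all genes in both. With differentiation the median was 0.77 in wild type, with 8 of 9 positive, against 0.02 over all genes. It was 0.47 against 0 in dICR/dICR. With the depth set as a term, 8 of 9 genotype effects in myotubes were negative (median -0.45, against -0.03 over all genes). Within the deep set it was also 8 of 9 (median -0.81, against -0.02). Tspan32, on its few counts, was positive in both (0.27 and 0.22). Slc22a18 entered the fit over all libraries through the deep wild-type libraries. Kcnq1 did so through wild-type libraries only and Tspan32 mainly through them, which favours negative genotype values. The 9 are thus not a neutral sample of the domain, and the share of all genes with each sign is not at hand.

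The closest likeness to Cdkn1c, by the smaller of its Pearson correlations of log2 CPM within the deep set (n = 7) and the shallow set (n = 6), was seen in R3hdml (0.979 deep, 0.985 shallow), Pdzrn3 (0.971, 0.972), Ephb3 (0.97, 0.992), 9930013L23Rik (0.958, 0.965) and Vstm4 (0.957, 0.967). The libraries of a set share depth and cell type contrasts, so these coefficients are a description. Within the domain Kcnq1 came closest (0.967 deep, 0.74 shallow), at rank 648 of 16536 genes, on its few counts. Kcnq1ot1 had 0.709 in the deep and 0.078 in the shallow set.

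Genes that work with or beside p57 were read from a list of 21 CDK inhibitors, cyclins, kinases, pocket proteins and E2F factors. With wild-type differentiation 4 rose, against 8.86% of all genes: Cdkn1a (p21) by 1.48 ± 0.40, Cdkn1b (p27) by 0.57 ± 0.18, the retinoblastoma gene Rb1 by 1.94 ± 0.38 and E2f2 by 0.67 ± 0.17 on the log2 scale. In the same comparison 10 fell, against 10.2% of all genes, among them the cyclin genes Ccnd1 (-4.39 ± 0.36), Ccne2 (-2.74 ± 0.54), Ccnd2 (-2.14 ± 0.27) and Ccne1 (-2.10 ± 0.35) and the kinase gene Cdk4 (-1.56 ± 0.26). The Cdkn1c change of 3.40 was the largest rise among Cdkn1c and these genes, and how it differs from the others was not tested. Cdkn1a, Cdkn1b and E2f2 were named after their values were seen, to complete the 4. Within the shallow set dICR/dICR myoblasts had 5 of 20 called higher, against 11.3% of all genes, led by Ccne2 (1.85 ± 0.22), Ccna2 (1.28 ± 0.16) and Cdk2 (1.12 ± 0.19 on the log2 scale). There 3 were lower, against 10.3%: Ccnd2 (-0.98 ± 0.19), Ccnd3 (-1.20 ± 0.23) and Cdkn1a (-1.60 ± 0.44), the last also named after its value was seen. In myotubes 1 of the 21 was called between genotypes, Ccne1, which was higher in dICR/dICR by 2.24 ± 0.40 (edgeR adjusted p = 0.035), against 0.333% of all genes called higher. Cdkn1a stood at 549 ± 309 CPM (SD, n = 2) in dICR/dICR and 753 ± 309 CPM (SD, n = 5) in wild-type myotubes, a log2 value of -0.46 ± 0.49 that did not pass (edgeR adjusted p = 0.663). Over the 21 genes the median genotype effect in myotubes was 0.64, with 19 positive, against -0.06 over all genes. Wild-type myotube 2 stood apart in the proliferation marker Mki67, at 246 CPM against 5.09 to 14 CPM in the other 4 wild-type myotubes, and dICR/dICR myotubes had 482 and 237 CPM. Without that library, an alternative chosen after seeing the data, 8 of the 21 were called higher in dICR/dICR myotubes, against 4.59% of all genes, among them the cyclin genes Ccna2 (4.53 ± 0.46) and Ccne1 (2.49 ± 0.36 on the log2 scale). The median over the 21 was then 0.59, with 19 positive, against -0.05 over all genes. That library was picked out by a proliferation marker, and the list holds genes of the cell cycle. Leaving it out lowers such genes in wild type by the choice itself, so these values are a description and no support.

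**Figure D4:**
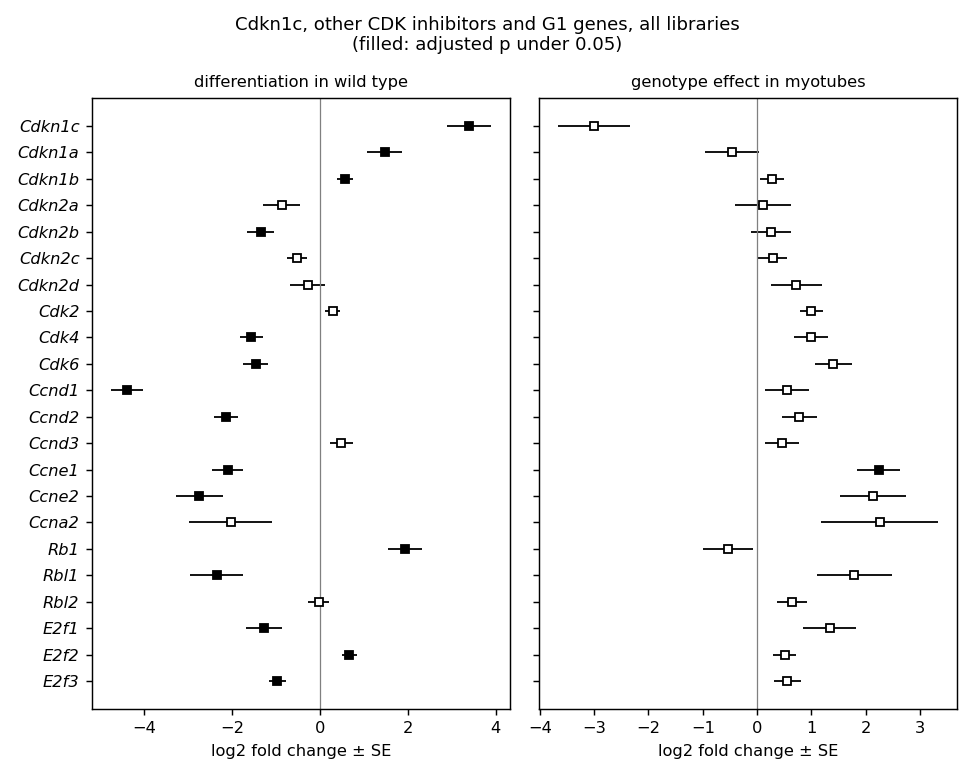
Log2 fold change with its standard error (horizontal axes) for Cdkn1c and the 21 listed genes (vertical axis), for wild-type differentiation and for the genotype effect in myotubes, over all libraries, with filled symbols for an edgeR adjusted p under 0.05. Cdkn1c at 3.40 and Ccnd1 at -4.39 lie farthest apart in the left panel, and Cdkn1c at -3.00 lies lowest in the right panel.

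A further list held 19 genes for factors that set or read imprints (DNA methyltransferases, Polycomb subunits, Ctcf, cohesin and others). Over all libraries none was called between genotypes, against 0.0302% of all genes in myoblasts and 0.556% in myotubes. At such low shares, 0 calls among 19 genes do not show that these factors were unchanged. An unadjusted p under 0.05 in edgeR was found for 0 in myoblasts and 4 in myotubes, with no share over all genes at hand. With wild-type differentiation 0 rose and 3 fell, against 8.86% and 10.2% of all genes: the maintenance methyltransferase gene Dnmt1 (-2.15 ± 0.43), the Polycomb methyltransferase gene Ezh2 (-1.48 ± 0.46) and the cohesin gene Smc1a (-0.79 ± 0.25 on the log2 scale). Within the shallow set 4 were higher in dICR/dICR myoblasts, against 11.3% of all genes: Uhrf1 by 1.41 ± 0.27, Ezh2 by 1.03 ± 0.19, Suz12 by 0.73 ± 0.15 and Dnmt1 by 0.70 ± 0.19. Of 16 tested neighbours on distal chromosome 7, H19 was the one called between genotypes in myotubes over all libraries (-8.92 ± 1.21, edgeR adjusted p = 0.0143), against 0.556% of all genes. In myoblasts 0 were called there, against 0.0302%. Within the shallow set 5 of 15 were lower in dICR/dICR myoblasts, against 10.3% of all genes. With the depth set as a term 3 of 16 were lower in myoblasts and 2 in myotubes, against 1.28% and 1.2%. Over all libraries 2 of the 16 rose with wild-type differentiation, Syt8 (3.91 ± 0.60) and Nctc1 (2.18 ± 0.58), against 8.86% of all genes. Igf2 had log2 genotype effects of 0.47 ± 0.74 in myoblasts and 1.47 ± 0.68 in myotubes, and neither passed.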

How the data were processed

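The authors deposited raw counts per gene for the 13 libraries, not normalised. TopHat2, HTSeq and the mm9 build are named per the submitters' processing notes. Their versions, the gene annotation and the strand setting of counting were not given in the sources used here. Per the labels' protocols, ribosomal RNA was depleted and 2 sequencing platforms were used. Which library was run on which is not given, so platform, depth set and any difference in preparation cannot be told apart.

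Counts were analysed in R 4.3.3 with edgeR 4.0.16 (filterByExpr by group with a minimum count of 10 and a minimum total of 15, TMM factors, glmQLFit and glmQLFTest, two-sided). The fit had 4 group means over all 13 libraries, and a gene was called when its p-value, adjusted by Benjamini-Hochberg, was under 0.05. The filter kept 16537 genes and 9 of the 10 members. Because the totals fell into 2 sets, divided at 20 M counts, contrasts were also fitted with the set as a term and within each set. DESeq2 1.42.0 was an alternative. Log2 CPM used a prior count of 2. Where a gene had no count, the limit is 3 counts, which covers counting error only. The fit over all libraries was checked on simulated counts with the same spread for every gene and changes planted in dICR/dICR myotubes only. The simulation had no shift between the depth sets and no outlying library, so it does not cover these features of the data. No replicate libraries were identical, and replicates differed beyond counting noise, with chi-square over its degrees of freedom at 4.67 to 369. The lowest values were those of the shallow wild-type pairs, myoblasts 3 and 4 at 4.67 and myotubes 4 and 5 at 21.9. Wild-type myoblasts of unlike depth set stood at 363 to 369.

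The members and gene lists were chosen with earlier results of these data known. Named genes were the members, H19, Igf2 and Ddx3y as checks, up to 6 called genes per list and comparison by lowest p, and the 5 genes most like Cdkn1c. Lists tested but not named further were myogenic regulators (4 higher and 3 lower of 13 with wild-type differentiation, against 8.86% and 10.2% of all genes) and the markers of 7 cell types.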

Additional observations from a re-analysis of the deposited data

Results flagged for a closer look

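Among 20 gene and group combinations with 4 or 5 libraries, 3 had a library far from the others of its group, and chance flags about 1 in 20. Kcnq1ot1 stood at 466 CPM in wild-type myotube 3, with a gap to the next library of 0.828 of the range of the group. Phlda2 stood at 0.12 CPM in the same library, on 5 counts, with a gap of 0.76 of the range. Cars stood at 269 CPM in wild-type myotube 1, with a gap of 0.739 of the range.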

How the results depend on the processing

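Cdkn1c kept its direction in each of the 5 comparisons under each alternative that was run. Its genotype effect in myoblasts passed by DESeq2 (-4.38), with the depth set as a term (-3.99), within the shallow set (-3.83), there with only the compared groups (-3.84) and with group and set means over all libraries (-3.86). In myotubes it passed by DESeq2 (-3.07), with the set as a term (-3.29) and with group and set means (-3.22). Leaving out 1 library gave -4.97 to -3.53 in myoblasts, -3.69 to -2.66 in myotubes, 2.95 to 4.01 for wild-type differentiation and 4.42 to 5.37 in dICR/dICR. Within the deep set the wild-type differentiation call ended without wild-type myoblast 1 (3.22, edgeR adjusted p = 0.119) or 2 (3.20, edgeR adjusted p = 0.13). The fits within a set with compared groups only, with group and set means, or with 1 library left out were chosen after seeing the data.

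Counts of genes called depended on the setting, and the cause was not tested. Against 5 in myoblasts, 92 in myotubes, 3158 for wild-type differentiation, 24 for dICR/dICR and 0 for the difference of effects, DESeq2 called 464, 1120, 1199 in dICR/dICR and 72 for the difference, and the set as a term gave 333, 425, 5267, 1262 and 16. Within the shallow set 2717 were called in myoblasts (2934 with compared groups only, 868 with group and set means). Within the deep set myotubes gave 3 with compared groups only and 601 with group and set means, which gave 4804 deep and 1154 shallow for wild-type differentiation. DESeq2 size factors gave 3 in myoblasts, and no filter gave 1 in myoblasts and 41 in dICR/dICR. Leaving out 1 library gave 0 to 1 in myoblasts, 1 to 919 in myotubes (919 when wild-type myotube 2 and 1 when dICR/dICR myotube 1 was left out), 1769 to 3574 for wild-type differentiation and 0 to 16 in dICR/dICR.

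Same-numbered wild-type myoblast and myotube libraries had deviations that correlated at -0.411 to 0.518, not every library correlated best with its own number, and the numbers were taken as names only. All wild-type pairs within a depth set correlated positively and all pairs across the sets negatively, so the signs follow the depth sets. With the replicate block, 0 genes were called in myoblasts, 3 in myotubes and 100 in dICR/dICR, and the Tssc4 rise no longer passed (0.65, edgeR adjusted p = 0.0909). Same-numbered dICR/dICR myoblasts and myotubes correlated at -0.388. With 2 libraries in each of these groups, all such correlations have the same size and differ only in sign. They cannot tell whether the numbers mark pairs. A replicate block with the dICR/dICR myotube numbers crossed, added after seeing the data, called 36, 32, 3654, 1046 and 0.

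Among members that were not called, some values near 0 or on few counts changed sign. In myoblasts these were Tspan32 (0.93 with the replicate block), Kcnq1 (0.06 with the block), Nap1l4 (0 with no filter, -0.07 with the set as a term) and Cars (-0.03, -0.04 and -0.05 in the 3 fits within the shallow set). In myotubes they were Tspan32 (0.58 with the block, 0.27 with the set as a term, 0.22, 0.22 and 0.23 within the deep set) and Kcnq1ot1 (0.21 with the block). For wild-type differentiation in the shallow set they were Kcnq1 (-0.22 with group and set means) and Cars (-0.27, -0.28 and -0.29), and in dICR/dICR Kcnq1 (0.05 with no filter, 0.38 with the set as a term). For the difference of effects they were Tspan32 (1.52), Cd81 (0.48) and Tssc4 (0.27) with the set as a term, and Tssc4 with no filter (0.05) and with the block (0.04). With the set as a term Slc22a18 took values of 3.66 in myoblasts, -8.61 in dICR/dICR and -4.93 for the difference, which rest on shallow wild-type libraries with no count. Leaving out 1 library, values ran from -0.73 to 0.54 (Tspan32), -0.02 to 1.32 (Kcnq1ot1), -0.09 to 0.23 (Nap1l4) and -0.01 to 0.41 (Cars) in myoblasts, -0.96 to 0.35 (Kcnq1ot1) and -2.15 to 0.05 (Slc22a18) in myotubes, and -0.06 to 0.27 (Cars) with wild-type differentiation. They ran from -0.43 to 0.64 (Cd81), -0.56 to 0.46 (Kcnq1), -0.12 to 1.29 (Kcnq1ot1) and -0.71 to 5.05 (Slc22a18) in dICR/dICR, and -0.74 to 0.34 (Cd81) and -0.55 to 0.26 (Tssc4) for the difference. Depth limits Phlda2, Kcnq1 and Tspan32 in the shallow libraries, where 3 counts are 0.235 to 0.611 CPM.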
